A study of Homo sapiens with 6 samples.

Results

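The 10 genes described here encode transcription factors that mark mesoderm, amnion and trophoblast, or the primitive streak from which mesoderm and endoderm both arise. They are HAND1, HAND2, TFAP2A, TFAP2B, TFAP2C, MESP1, MESP2, MSX1, MSX2 and EVX1, chosen by name and each found in 1 row of a table of 58830 genes. The table holds RNA-seq of HuES8, a human embryonic stem cell line, driven for 3 days towards definitive endoderm in medium with 0.2% BSA. Activin A at 100 ng/mL was present throughout, joined on day 1 by 2.5 µM CHIR, an inhibitor of GSK3 that turns on Wnt signalling, and alone for the next 2 days. One group, KD, had the antisense RNA GATA6-AS1 knocked down (3 libraries), and the other, DE, was wild type (3 libraries). The sources used here give neither the means of knockdown nor whether DE cells carried a control construct. Whether replicates came from separate cultures is not labelled, and p-values therefore speak for the spread among these libraries, which may be technical.

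HAND1 and HAND2 are basic helix-loop-helix (bHLH) factors that bind DNA with E-proteins. In the mouse, Hand1 is needed in trophoblast, extraembryonic mesoderm and heart. TFAP2A, TFAP2B and TFAP2C are AP-2 factors of trophoblast, amnion, surface ectoderm and neural crest, and TFAP2C is also active in human naive stem cells and primordial germ cells. MESP1 and MESP2 are bHLH factors of nascent mesoderm, known in the mouse for heart precursors and for somite borders. MSX1 and MSX2 are homeobox repressors that respond to BMP, and EVX1 is a homeobox factor of the posterior streak. During endoderm formation high Activin signalling favours endoderm, while BMP and Wnt favour the mesodermal fates that these genes mark.

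Values are in TPM, a unit that corrects for gene length and sets each library to 1000000. Steps in the low values gave an estimate of 18633377 to 24510428 reads a library, summed only over the 37138 rows with a read estimate. By the same estimate, 1 TPM over 1 kb of exon stood for 5.64 to 8.08 reads. Mitochondrial transcripts took 24.6% to 38.0% of TPM, most in replicate 3 of both groups. GATA6-AS1 stood at 180, 163 and 126 TPM in KD and 389, 421 and 313 TPM in DE, a log2 change of -1.26 (SE 0.16, limma adjusted p = 0.0128), which lost its call without KD replicate 2 or DE replicate 1 (limma adjusted p = 0.0590 and 0.0644). The endoderm markers were abundant in both groups, with SOX17 at 198 to 343 TPM in KD and 443 to 673 TPM in DE. FOXA2 (76.02 ± 6.59 TPM in KD and 127.4 ± 2.21 TPM in DE) and CXCR4 (119.6 ± 18.3 and 237.6 ± 31.4 TPM, SD, n = 3 each) fell, while SOX17 did not pass (limma adjusted p = 0.0530; 0.00757 with the replicate number as a block). Among the 17711 genes tested, limma called 3.27% at an adjusted p of 0.05, split into 1.77% upward and 1.5% downward in KD. The replicate block raised this to 12.5%, with 5.88% upward and 6.62% downward.

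Only 4 of the 10 genes were expressed above trace level. MSX2, EVX1, TFAP2C and HAND1 reached 1 TPM in at least 3 of the 6 libraries and entered the test. TFAP2A, MESP2, MSX1, MESP1, HAND2 and TFAP2B stayed under 1 TPM in every library. Of the 4 genes tested, HAND1 fell and TFAP2C rose in KD, while EVX1 and MSX2 did not pass. HAND1, TFAP2C and EVX1 were the genes whose KD and DE libraries did not overlap, as held for 20.8% of all genes tested (10.1% with KD higher and 10.7% with KD lower).

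**Figure D1:**
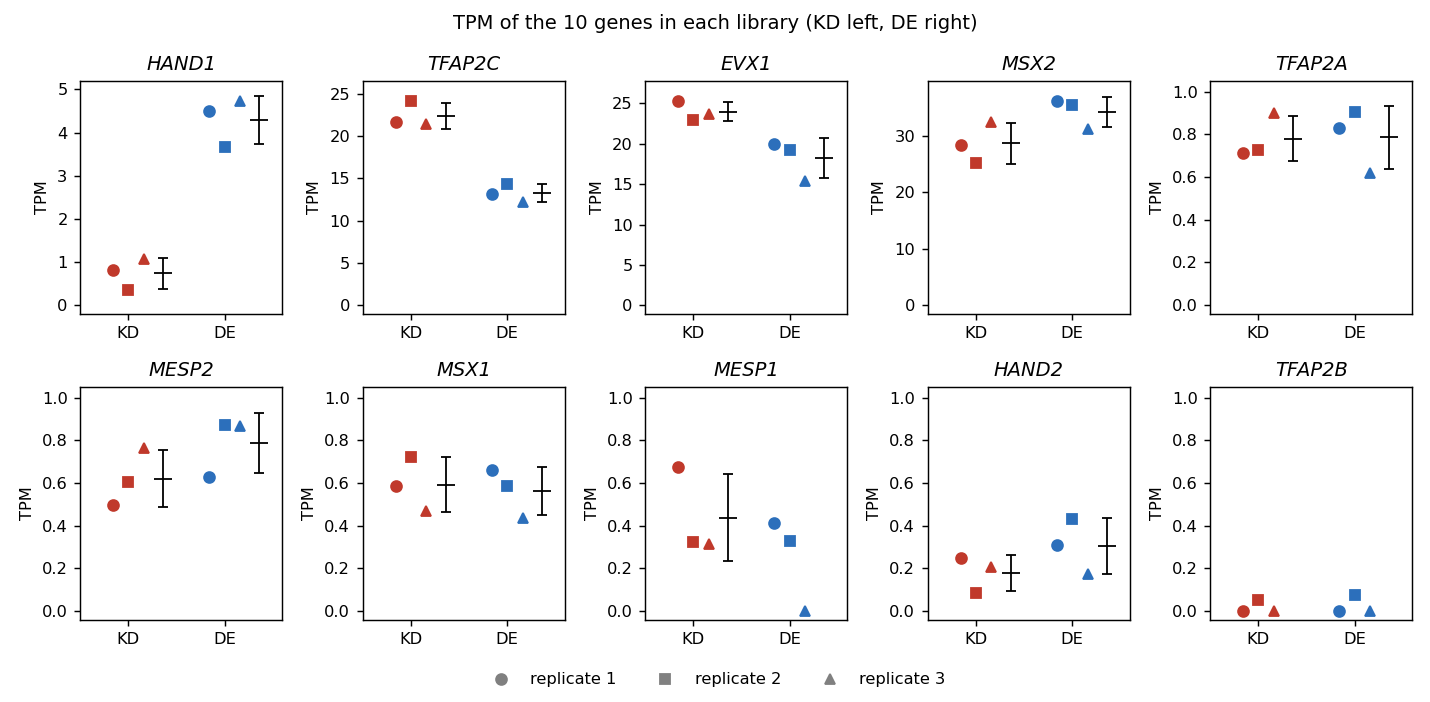
TPM of each gene (y axis, linear) in the 3 KD libraries (red, left) and the 3 DE libraries (blue, right), with the mean and SD in black except where a group holds a value of 0. HAND1 lies between 0.353 and 1.07 TPM in KD and between 3.67 and 4.72 TPM in DE, TFAP2C is higher in every KD library, and the 6 genes from TFAP2A to TFAP2B stay under 1 TPM throughout.

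Promoter sequences of 8 of the 10 genes were matched by symbol in RefSeq on GRCh38.p14. The 250 bases before the RefSeq start are shown for HAND1, EVX1 and MSX2, the matched genes that entered the test. TFAP2C, which entered it too, and MESP1 had no match, so no TFAP2C sequence is shown. The 4 letters GATA, the core bound by GATA factors, and GCCNNNGGC, the form bound by AP-2 factors, were searched on both strands and are in capitals. The windows are chr5:154478228-154478477 (minus strand) for HAND1, chr7:27242552-27242801 (plus strand) for EVX1 and chr5:174724332-174724581 (plus strand) for MSX2. In GENCODE 29 these genes start further upstream, at 154478264, 27242700 and 174724533, so each window overlaps the gene model of that annotation.
HAND1: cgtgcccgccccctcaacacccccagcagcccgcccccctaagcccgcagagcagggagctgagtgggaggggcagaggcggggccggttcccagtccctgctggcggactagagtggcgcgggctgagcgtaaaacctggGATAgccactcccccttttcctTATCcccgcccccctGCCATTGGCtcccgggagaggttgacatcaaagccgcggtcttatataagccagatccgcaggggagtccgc
EVX1: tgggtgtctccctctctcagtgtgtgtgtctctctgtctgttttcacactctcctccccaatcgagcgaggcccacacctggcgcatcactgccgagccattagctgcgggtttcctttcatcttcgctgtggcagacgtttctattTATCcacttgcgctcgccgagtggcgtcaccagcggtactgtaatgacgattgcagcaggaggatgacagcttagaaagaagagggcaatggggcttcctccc
MSX2: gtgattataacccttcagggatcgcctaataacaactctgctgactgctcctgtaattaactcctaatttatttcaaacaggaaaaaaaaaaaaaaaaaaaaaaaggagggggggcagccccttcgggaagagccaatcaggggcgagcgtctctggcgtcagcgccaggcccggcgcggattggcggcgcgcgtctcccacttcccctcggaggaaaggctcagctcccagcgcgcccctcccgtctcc

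The HAND1 window held GATA at 109 to 106 and, on the other strand, at 87 to 84 bases before the start, and 1 AP-2 form at 72 to 64. The letters of that AP-2 form overlap ATTGG, the reverse complement of the CCAAT box. The letters CCAAT also occur in the EVX1 and MSX2 windows. EVX1 held GATA on the other strand, at 103 to 100 bases before the RefSeq start, and MSX2 held none. Among windows not shown, of genes under 1 TPM, HAND2 held GATA at 3 places and TFAP2B at 2. TFAP2A, MESP2 and MSX1 held none. The same letters GATA occur in 45.6% and GCCNNNGGC in 19.8% of the 35116 RefSeq windows of this length. E-boxes (CANNTG), the sites of bHLH factors, occur in 61.8% of windows, at 2 places in EVX1 and at none in HAND1 or MSX2. A match of letters is a description and not a binding site.

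HAND1 fell in KD. Its 2 exons lie on the minus strand of chromosome 5 from 154474972 to 154478264 (GENCODE 29, GRCh38). It stood at 0.816, 0.353 and 1.07 TPM in KD libraries 1 to 3, against 4.50, 3.67 and 4.72 TPM in DE libraries 1 to 3. The groups did not overlap, and 2.61 TPM separated the highest KD value and the lowest DE value. The estimated reads were 8, 4 and 15 in KD and 56, 41 and 53 in DE, so each KD value rests on few reads.

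HAND1 averaged 0.746 ± 0.362 TPM in KD and 4.30 ± 0.552 TPM in DE (SD, n = 3 each), a ratio of means, KD over DE, of 0.173. On the scale of log2(TPM + 1) the change was -1.62 (SE 0.21, 95% interval -2.10 to -1.13, limma adjusted p = 0.0123). That scale understates changes near 1 TPM. With 0.1 in place of 1 the change was -2.48 (SE 0.39, limma adjusted p = 0.0223), where 3.1% of all genes passed (1.67% higher and 1.43% lower). Limma's voom on the estimated reads gave -2.53 (SE 0.43, limma adjusted p = 0.00522), where 9.97% passed (5.14% higher and 4.82% lower). HAND1 entered the test through its 3 DE libraries and KD replicate 3. With no filter on low values its limma adjusted p was 0.0432, where 0.646% of all genes passed (0.357% higher and 0.289% lower). The call was lost without DE replicate 1 (log2 change -1.59, limma adjusted p = 0.0632) and held without each other single library. In a bulk culture, fewer cells that express a gene and less of its RNA per cell cannot be told apart.

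HAND2, the paralog of HAND1 that is best known from heart and limb, was at trace level. It stood at 0.246, 0.0853 and 0.206 TPM in KD, against 0.311, 0.433 and 0.172 TPM in DE, from 13 and 22 estimated reads in all. The groups overlapped (2-sided exact permutation p = 0.3 for 3 against 3 libraries, where 0.1 is the smallest possible). Fitted without a filter its log2 change was -0.14, with a 95% interval of -0.42 to 0.13 on the log2(TPM + 1) scale. Its exons share 24.1% of their bases with the antisense gene HAND2-AS1, which averaged 0.0394 ± 0.0223 TPM in KD and 0.0506 ± 0.00548 TPM in DE (SD, n = 3 each).

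TFAP2C rose in KD. This gene of 8 exons lies on the plus strand of chromosome 20 from 56629302 to 56639283. It stood at 21.6, 24.1 and 21.4 TPM in KD libraries 1 to 3, against 13.1, 14.4 and 12.2 TPM in DE libraries 1 to 3. The lowest KD library lay 7.01 TPM above the highest DE library. TFAP2C averaged 22.3 ± 1.49 TPM in KD and 13.2 ± 1.08 TPM in DE (SD, n = 3 each), and the KD mean was 1.69 times the DE mean.

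Its log2 change was 0.72 (SE 0.11, 95% interval 0.46 to 0.97, limma adjusted p = 0.0197). The values rest on 1356 estimated reads in KD and 796 in DE. With the replicate block the limma adjusted p was 0.00324. The size of the change hardly depended on any 1 library, between 0.66 and 0.77 without each in turn, but the call was lost without KD replicate 1, 2 or 3 (limma adjusted p = 0.0796, 0.132 and 0.0583) or DE replicate 1 (0.108).

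The other AP-2 genes were low and overlapped between the groups. TFAP2A, a factor of amnion, surface ectoderm and neural crest, had 0.710, 0.726 and 0.9004 TPM in KD and 0.831, 0.907 and 0.620 TPM in DE. From 132 and 130 estimated reads, its log2 change without a filter was -0.0038 (95% interval -0.37 to 0.37), and its sign varied with the scaling. Reads of TFAP2A may include those of antisense RNA, since 11.4% and 5.29% of its exon bases are shared with TFAP2A-AS2 and TFAP2A-AS1.

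TFAP2B was listed at 0, 0.0499 and 0 TPM in KD and at 0, 0.0760 and 0 TPM in DE. Those values stand for 2 and 3 reads, and 3 reads, the most that a count of 0 allows, would be 0.0604 to 0.0866 TPM in the libraries at 0, for counting error only. TFAP2E, a further AP-2 gene, had 2.48 ± 0.772 TPM in KD and 2.62 ± 0.402 TPM in DE (SD, n = 3 each) and did not pass (log2 change -0.08, 95% interval -0.55 to 0.40).

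EVX1 was expressed in both groups. It lies on chromosome 7 from 27242700 to 27250493 on the plus strand. It stood at 25.2, 23.0 and 23.7 TPM in KD libraries 1 to 3, against 19.9, 19.3 and 15.4 TPM in DE libraries 1 to 3. All KD libraries were higher than all DE libraries, and DE replicate 3 was the lowest. EVX1 averaged 24.0 ± 1.14 TPM in KD and 18.2 ± 2.46 TPM in DE (SD, n = 3 each).

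The log2 change of EVX1 was 0.39 (SE 0.13, 95% interval 0.09 to 0.68) and its limma adjusted p of 0.182 missed the threshold. It passed with the replicate block (limma adjusted p = 0.0424, with 12.5% of all genes passing) and with voom (0.0243, with 9.97%). It also passed after scaling to common quantiles (limma adjusted p = 0.0305, with 9.8%), scaling by the median ratio (0.0294, with 9.84%) or leaving mitochondrial genes out (0.0282, with 8.8%). As reported, 3.27% of all genes passed. Without DE replicate 3 the change was 0.28. The antisense gene EVX1-AS had 9.64, 10.2 and 9.27 TPM in KD, against 6.68, 8.13 and 4.55 TPM in DE. Its log2 change of 0.55 missed the threshold (limma adjusted p = 0.209) and met it narrowly with the replicate block (limma adjusted p = 0.0493), but not with the block and a pseudocount of 0.1 (0.0528) or with voom (0.0639). The scalings by quantiles, by median ratio and without mitochondrial genes gave limma adjusted p = 0.0323, 0.0332 and 0.0479. The 2 genes share 532 exon bases, 15.9% of EVX1 and 39.1% of EVX1-AS, and with no stated strand setting reads from these bases could not be told apart.

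MSX2 had the highest level of the 10 genes, above 92.0% of all rows of the table in its mean over 6 libraries. It lies on chromosome 5 from 174724533 to 174730893 on the plus strand. It stood at 28.3, 25.1 and 32.4 TPM in KD libraries 1 to 3, against 36.02, 35.4 and 31.2 TPM in DE libraries 1 to 3. The difference KD minus DE was -7.74 and -10.3 TPM between libraries 1 and between libraries 2, and 1.26 TPM between libraries 3, so that the groups overlapped. MSX2 averaged 28.6 ± 3.68 TPM in KD and 34.2 ± 2.64 TPM in DE (SD, n = 3 each), and the change did not pass (log2 change -0.25, 95% interval -0.55 to 0.04, limma adjusted p = 0.408). Without replicate 3 of both groups it was -0.41 (limma adjusted p = 0.0525).

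MSX1, the other MSX homeobox gene, was at 0.586, 0.724 and 0.467 TPM in KD and 0.659, 0.588 and 0.438 TPM in DE. The groups overlapped, with 25 and 24 estimated reads (log2 change without a filter 0.03, 95% interval -0.31 to 0.36). MSX2P1, a processed pseudogene of MSX2, averaged 0.690 ± 0.461 TPM in KD and 0.710 ± 0.0990 TPM in DE (SD, n = 3 each), and reads could have been split between it and MSX2.

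The MESP genes were at trace level on day 3 of the protocol. Their GENCODE 29 models lie 9280 bases apart on chromosome 15, with MESP2 from 89760591 to 89778754. The RefSeq start used for the MESP2 window lies inside that model, after base 89776331, so the distance depends on the annotation. MESP1, a factor of nascent mesoderm, had 0.674, 0.324 and 0.313 TPM in KD and 0.413, 0.329 and 0 TPM in DE, from 20 and 12 estimated reads. In the DE library at 0, 3 reads would be 0.196 TPM. MESP2 had 0.497, 0.603 and 0.763 TPM in KD and 0.627, 0.874 and 0.868 TPM in DE, from 23 and 28 estimated reads. Both overlapped between the groups, and the 95% intervals of the log2 change without a filter were -0.21 to 0.63 for MESP1 and -0.51 to 0.22 for MESP2.

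By level, MSX2 was followed by EVX1, TFAP2C and HAND1 in DE. In KD, MSX2, EVX1 and TFAP2C lay closer together (28.6 ± 3.68, 24.0 ± 1.14 and 22.3 ± 1.49 TPM), EVX1 and TFAP2C being no further apart than their SDs span. HAND1 at 0.746 ± 0.362 TPM there was no longer set apart from TFAP2A at 0.779 ± 0.106 TPM, whereas in DE it stood at 4.30 ± 0.552 TPM against 0.786 ± 0.149 TPM for TFAP2A. The low genes ran TFAP2A, MESP2, MSX1, MESP1 and HAND2 by mean in KD, and MESP2, TFAP2A, MSX1, HAND2 and MESP1 in DE. Neighbours in these orders differed by less than the sum of their SDs, except MSX1 and HAND2 in DE (0.562 ± 0.113 and 0.305 ± 0.130 TPM).

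**Figure D2:**
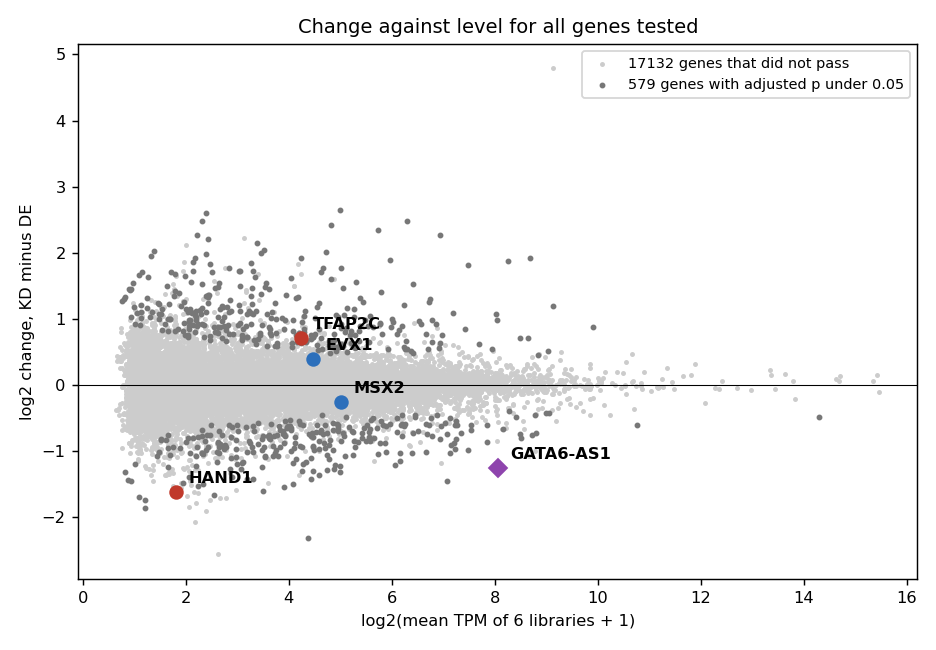
Log2 change, KD minus DE (y axis), against the log2 of the mean TPM plus 1 over 6 libraries (x axis), for the 17711 genes tested, with the 579 that passed in dark grey. HAND1 (-1.62) and TFAP2C (0.72) are the red points that passed, EVX1 (0.39) and MSX2 (-0.25) the blue points that did not, and GATA6-AS1 (-1.26) is the purple diamond.

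The genes whose profile over the 6 libraries lay nearest to that of HAND1 were RP4-764O22.1, RNASE1, EYA2, NCR1 and GATA3, with root mean square differences of 0.15, 0.16, 0.24, 0.24 and 0.24 between centred log2(TPM + 1) values among 17306 genes searched. RNASE1, a secreted ribonuclease, stood at 8.71, 7.03 and 8.05 TPM in KD and 24.9, 23.3 and 24.2 TPM in DE. GATA3, a zinc-finger factor of trophoblast and amnion, stood at 19.2, 14.5 and 17.4 TPM in KD and 42.3, 35.9 and 43.1 TPM in DE. In each of these, as in HAND1, KD replicate 2 was the lowest library. Nearest to TFAP2C was SFRP2, a secreted Wnt antagonist, at 493, 532 and 460 TPM in KD and 306, 333 and 271 TPM in DE (difference 0.04), with replicate 2 highest and replicate 3 lowest in both groups for both genes. Nearest to EVX1 was KIF21A, a kinesin motor, with 12.4 ± 0.545 TPM in KD and 9.70 ± 1.31 TPM in DE, and nearest to MSX2 was RP11-56B16.2, with 7.92 ± 1.03 TPM in KD and 9.57 ± 1.07 TPM in DE (SD, n = 3 each; differences of 0.04). These genes were picked for likeness, so that their direction is not a separate result.

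Lists of related genes were chosen with earlier results of these data known. They were read by counts against the 3.27% of all genes and the median log2 change of -0.01. Counts with the replicate block stand against 12.5% of all genes, 5.88% higher and 6.62% lower. BMP, the signal to which MSX and HAND genes respond, showed no common direction. Of 21 tested genes of its pathway and targets, 2 were called higher, 2 lower and 17 neither (median -0.02). ID2, an inhibitor of bHLH factors, rose (40.3 ± 1.30 TPM in KD and 28.1 ± 1.62 TPM in DE, SD, n = 3 each), as did GATA2 (7.59 ± 0.529 and 3.42 ± 0.675 TPM). GATA3 fell (17.0 ± 2.40 and 40.5 ± 3.95 TPM), as did BMP2, a ligand (97.1 ± 11.7 and 150.03 ± 15.4 TPM). With the replicate block 5 rose and 4 fell.

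Among 9 tested bHLH partners and relatives, E-proteins and ID genes, only ID2 passed, and its call was lost without any single library except DE replicate 3 (median 0.06). TCF3, TCF4 and TCF12, the E-proteins with which HAND and MESP factors pair, were among those that did not pass, and TCF4 rose with the replicate block (limma adjusted p = 0.0443). Of 6 tested AP-2 paralogs and cofactors, 1 fell, the coactivator CITED2 (83.4 ± 5.95 TPM in KD and 127.6 ± 5.002 TPM in DE, SD, n = 3 each), and none rose. This list also holds TFAP4, a bHLH gene that is no AP-2 factor. Of 5 tested homeobox relatives of MSX and EVX, NKX1-2 rose (12.8 ± 1.51 TPM in KD and 4.54 ± 1.38 TPM in DE, SD, n = 3 each), with BARX1 and GBX2 also higher under the replicate block, while DLX1, DLX2, DLX3, DLX5, DLX6, BARX2 and EVX2 stayed under 1 TPM in every library.

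Lists of the cells that these factors mark split in direction. The lists share genes, so their counts are not separate results. GATA4 stands in the mesoderm and endoderm lists, and GSC, EOMES and LHX1 stand in the streak and endoderm lists. GATA2 and GATA3 stand in the BMP and trophoblast lists. ID1, ID2, ID3 and ID4 stand in the bHLH and BMP lists, and PRDM14 in the germ cell and pluripotent lists. BMP4, ISL1, SNAI2, TWIST1, CDX2, DLX5 and DLX6 are also shared between lists. Of 14 tested streak genes, 3 rose and 2 fell (median -0.05), among them T, the brachyury gene (56.4 ± 2.06 TPM in KD and 35.8 ± 2.95 TPM in DE, SD, n = 3 each). GDF3 (151.2 ± 9.85 and 61.3 ± 7.84 TPM) and FGF4 (121.4 ± 9.07 and 61.9 ± 11.6 TPM), both ligands, also rose. GSC (283.8 ± 9.28 and 398.6 ± 18.8 TPM), a homeobox factor of the anterior streak, and the receptor gene APLNR (9.08 ± 0.605 and 14.1 ± 0.721 TPM) fell. Of 15 tested mesoderm genes, TBX5 and KDR rose and GATA4 fell (median -0.27). TBX5, a T-box factor of heart and limb, stood at 15.97 ± 0.560 TPM in KD and 7.38 ± 0.384 TPM in DE (SD, n = 3 each). With the replicate block 2 mesoderm genes rose and 5 fell, with GATA4, ISL1, TBX3 and MYL7 among those that fell.

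Of 8 tested trophoblast and amnion genes, GATA2 and HEY1 rose and GATA3 and ERVW-1 fell (median -0.19). HEY1, a Notch target, had 2.80 ± 0.702 TPM in KD and 0.788 ± 0.0701 TPM in DE (SD, n = 3 each), and entered the test only through its KD libraries. The summed level of all 18 genes of that list was 112.5 to 116.2 TPM in KD and 138.8 to 145.6 TPM in DE. GATA3 and ERVW-1 (7.92 ± 0.470 and 14.3 ± 0.509 TPM) made up most of that difference, while TEAD3, the most abundant gene of the list, had 68.3 ± 1.52 TPM in KD and 68.99 ± 3.15 TPM in DE. The trophoblast markers ELF5, TP63, CGA and CDX2 and the amnion marker VTCN1 stayed under 1 TPM in every library, and CGB5 was listed at 0 in all. In the neural crest and surface ectoderm list, 3 of 9 tested genes rose and 1 fell. SOX9 stood at 4.26 ± 0.735 TPM in KD and 0.637 ± 0.1004 TPM in DE (SD, n = 3 each) and likewise entered the test only through its KD libraries. FOXD3 (12.6 ± 2.56 and 4.96 ± 1.76 TPM) and GRHL2 (14.8 ± 0.873 and 8.43 ± 1.16 TPM) also rose, PAX7 fell (2.50 ± 0.131 and 5.97 ± 0.811 TPM), and SOX10, the defining crest marker, was listed at 0 in all 6 libraries.

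TFAP2C stood apart in direction from PRDM1, with which it acts in human germ cells. PRDM1 fell to 40.2 ± 3.93 TPM in KD, against 74.6 ± 4.09 TPM in DE (SD, n = 3 each), and was the 1 gene of 6 tested germ cell and naive state genes that passed (median 0.03). With the replicate block KIT, a receptor gene, was also lower (72.9 ± 9.70 TPM in KD and 120.6 ± 21.5 TPM in DE, limma adjusted p = 0.00576). PRDM14 was higher with the block (50.4 ± 4.17 and 37.2 ± 2.87 TPM, limma adjusted p = 0.00790). This made 3 of 6, against 12.5% of all genes with the block. DPPA3, DPPA5 and KLF17 stayed under 1 TPM in every library. Of 10 genes of pluripotent cells, 7 rose (median 0.71), among them THY1, SOX2, POU5F1 and NANOG, while PRDM14, L1TD1 and LIN28A did not pass. LIN28A averaged 1006 ± 97.9 TPM in KD and 1013 ± 162.1 TPM in DE (SD, n = 3 each). With the replicate block 8 rose. The summed level of the 10 was 4013 to 4576 TPM in KD and 2753 to 3530 TPM in DE. Of 10 endoderm genes 5 fell (median -0.69), and all 10 fell with the replicate block. Their sums were 18505 to 20329 TPM in KD and 25479 to 29226 TPM in DE, of which CER1, a secreted antagonist of Nodal and BMP, held 16815 ± 773.5 and 23570.1 ± 1560 TPM. Their part in the changes of HAND1 and TFAP2C was not tested.

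**Figure D3:**
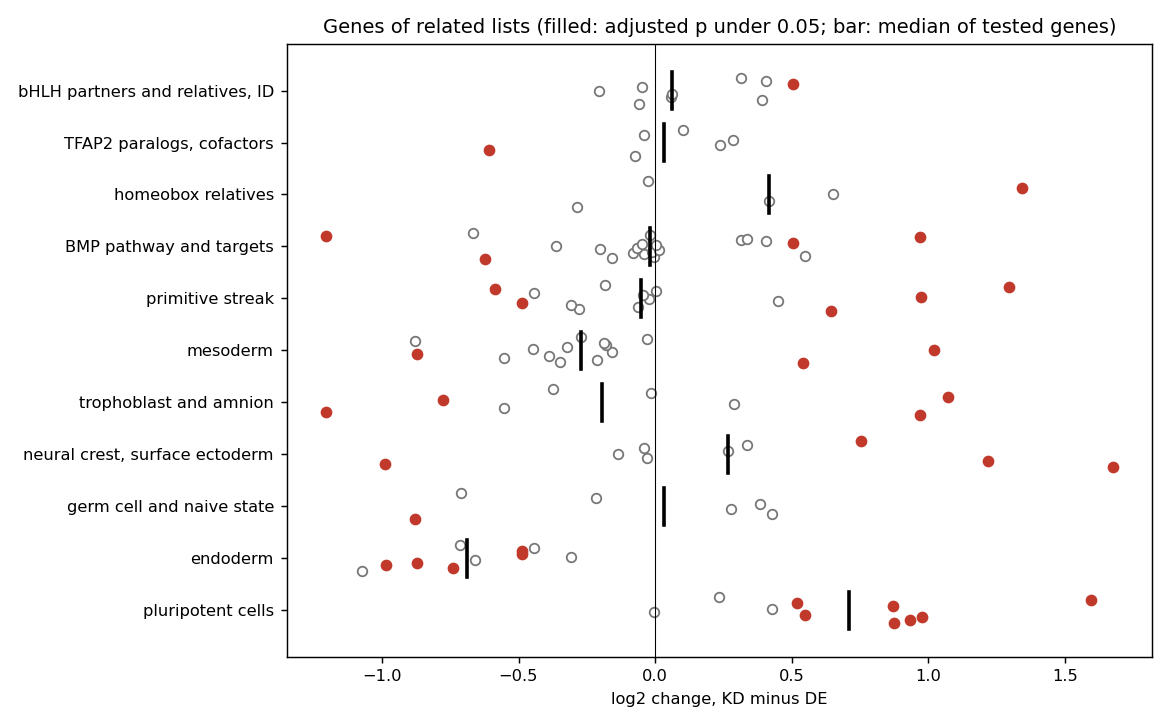
Log2 change, KD minus DE (x axis), of the tested genes of 11 related lists (rows), filled where limma adjusted p was under 0.05, with a bar at each list's median. The BMP, streak, mesoderm and trophoblast lists hold filled points on both sides of 0, while those of pluripotent cells lie to the right (median 0.71) and those of endoderm to the left (median -0.69). A gene that stands in several lists is drawn in each.

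Over all lists together, 31 of 100 tested genes passed, 19 higher and 12 lower in KD. Such a share is not a separate result, as the lists were chosen with earlier results of these data known. The count was 10, 4 and 14 without KD replicate 1, 2 and 3, and 6, 17 and 32 without DE replicate 1, 2 and 3, with fewer libraries in each fit. GATA3, GDF3, SOX2 and THY1 kept their calls without any single library. TBX5 lost its call without KD replicate 2 and PRDM1 without KD replicate 2 or DE replicate 1. FOXA2 and GATA4 lost theirs in the same 2 fits as PRDM1. NKX1-2, FGF4, POU5F1 and NANOG lost it without KD replicate 1 or 2 or DE replicate 1, and T, GATA2 and GRHL2 without any 1 KD library or DE replicate 1. CXCR4 lost it without KD replicate 2 or 3 or DE replicate 1 or 2, and ERVW-1 without KD replicate 1 or 2 or DE replicate 1 or 2. KDR, BMP2, CITED2, PAX7, GSC, APLNR and ID2 lost it without every single library except DE replicate 3, FOXD3 without every one except DE replicate 2, and CER1 without every one. SOX9 kept its call without each DE library, and HEY1 lost it there, but without any 1 KD library neither gene passed the filter, so neither was tested.

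**Figure D4:**
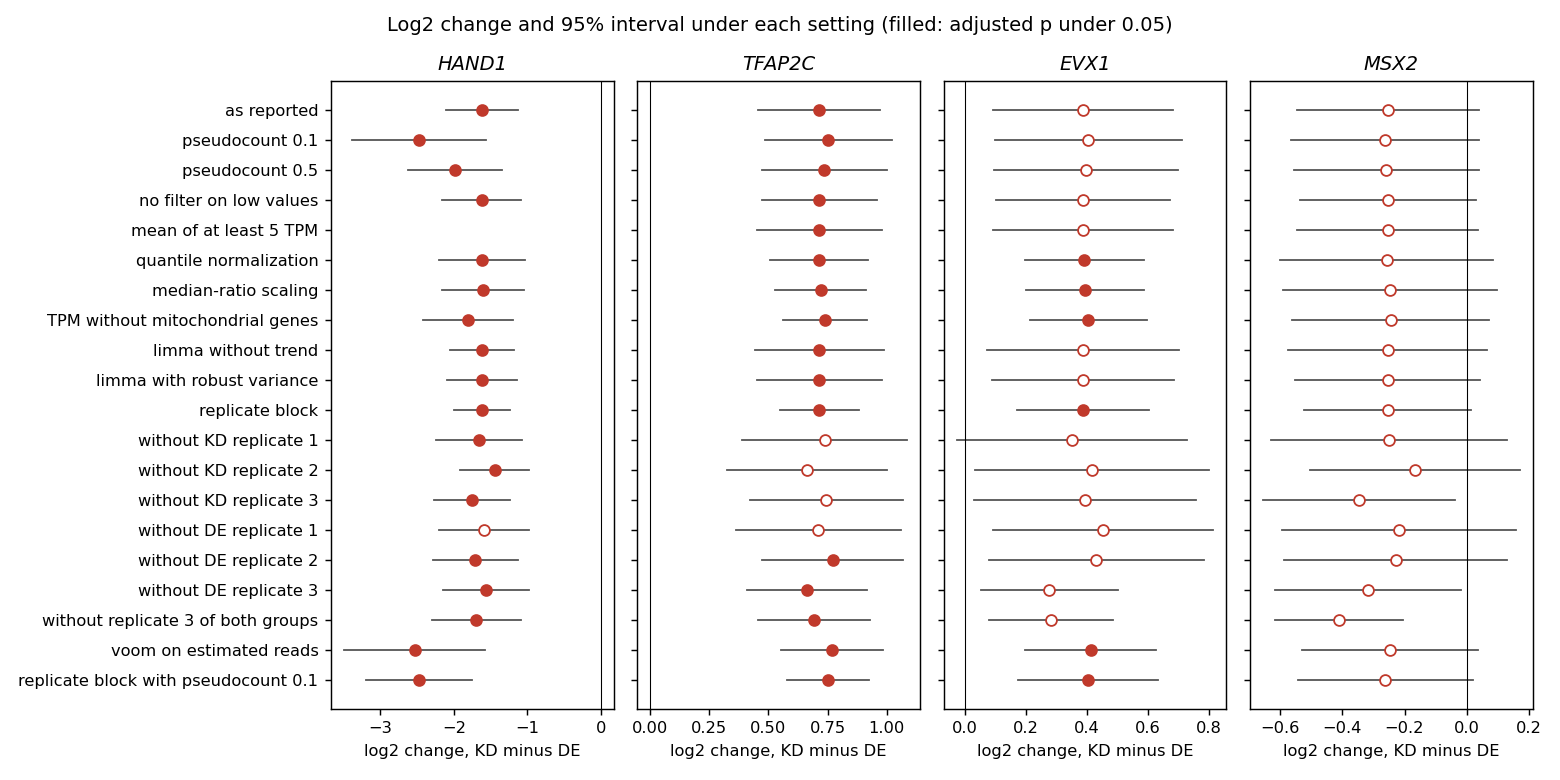
Log2 change, KD minus DE, and its 95% interval (x axis, a scale for each gene) for HAND1, TFAP2C, EVX1 and MSX2 under each way of processing (rows), filled where adjusted p was under 0.05. HAND1 runs from -2.53 to -1.45 and TFAP2C from 0.66 to 0.77, on 1 side of 0 throughout, while EVX1 (0.28 to 0.45) is filled in 6 rows and MSX2 (-0.41 to -0.17) in none.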

How the data were processed

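The 6 HuES8 RNA-seq libraries, 3 KD and 3 DE, were grouped by their titles. Values are TPM that the authors deposited for 58830 rows, and every column adds up to 1000000. The build GRCh38 and the tools DESeq2, featureCounts and HISAT2 (2.1.0) come from the submitters' processing notes, which assign no roles. Annotation, strand setting and filters: not given in the sources used here. A TPM value relates each gene to its library's total, so a larger share of 1 class of RNA lowers all others.

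Genes that reached 1 TPM in 3 or more of the 6 libraries (0.5 or more of those left, where libraries were left out) were tested on log2(TPM + 1) with limma 3.58.1 (R 4.3.3, eBayes with trend, 2-sided, Benjamini-Hochberg over all genes tested, threshold 0.05). Reads were estimated for the 37138 rows whose symbol names a single GENCODE 29 gene, as TPM times exon length over a constant per library. Of values under 50 reads, 88.7% to 89.5% lay within 0.02 of a whole number. Only the fit as reported and voom were tried on simulated counts, with the same spread setting for every gene and no replicate effects. The other settings were not tried on them. Other steps used scipy 1.17.1, pandas 2.3.3 and numpy 2.4.6, and figures matplotlib 3.10.9, under Python 3.11.15.

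After group means were removed, same-numbered libraries correlated over genes at 0.108, 0.144 and 0.347, all over the limit of 0.1 for treating numbers as pairs, so blocked values are given where they change a call. KD replicate 1 and DE replicate 2 correlated at 0.121, so the pairing rests narrowly on the data and on no label.

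The 10 genes and the lists were chosen with earlier results of these data known. The named genes were the 10, the knocked-down RNA, marker genes, up to 4 called genes per list with the smallest p, and those nearest in profile. TCF4, BARX1, GBX2, ISL1, TBX3, MYL7, KIT, PRDM14, L1TD1, LIN28A, TEAD3, CER1, TFAP2E, EVX1-AS, the other antisense rows, the pseudogene and the low genes of the lists were named after their values were seen. Alternatives were other pseudocounts, filters, scalings, variance settings and thresholds, the replicate block and left-out libraries. After the data were seen, voom on estimated reads and the block with a pseudocount of 0.1 were added.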

Additional observations from a re-analysis of the deposited data

How the results depend on the processing

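HAND1 was lower in all 20 alternatives that could be run and TFAP2C higher in all 21, passing in 18 and 15. HAND1 could not be tested at a mean of at least 5 TPM. Both missed an adjusted p of 0.01. MSX2 passed in none of 21 and EVX1 in 6. The number of the 10 genes that passed was 1 at a mean of at least 5 TPM, 0 at an adjusted p of 0.01, 1 with an added log2 change of at least 1, and 0 to 2 without single libraries. It was 3 with the replicate block, where 12.5% of all genes passed. GATA6-AS1 (log2 change -1.26) missed only an adjusted p of 0.01 and the fits without KD replicate 2 or DE replicate 1, running from -1.38 to -1.11 without single libraries.

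The count of genes that passed, 579 as reported, was 239 with no filter, 1735 with quantile and 1743 with median-ratio scaling, 1682 without mitochondrial genes, 2215 with the replicate block (2083 with a pseudocount of 0.1 as well), 106 at an adjusted p of 0.01, 229 with a log2 change of at least 1, 1126 without replicate 3 of both groups, 1866 with voom, and 75 to 633 without single libraries. The matching counts over all lists, 31 as reported, were 14, 50, 49, 50, 53 (52), 7 and 8, with 54 for voom and 4 to 32 without single libraries. The cause of these differences was not tested, except that fewer libraries or genes entered some fits.

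Among the genes under 1 TPM, fitted with no filter, signs turned without any call. TFAP2A, -0.0038 as reported, was 0.0206 with quantile scaling, 0.00771 with median-ratio scaling and 0.00849 without mitochondrial genes, and ran from -0.0725 to 0.0453 without single libraries. TFAP2B ran from -0.0352 to 0.0234 and MSX1 from -0.0317 to 0.0849 without single libraries. Depth limits these genes: each rests on at most 60 reads in any library.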
